A study of Homo sapiens with 18 samples.

Results

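The core histone genes of human chromosome 6 are the protein-coding genes in the 3 Mb from position 25500001 of the hg19 assembly whose names begin with H2AC, H2BC, H3C or H4C, or with the older forms HIST1H2A, HIST1H2B, HIST1H3 or HIST1H4. There were 46 such genes among the 20098 protein-coding genes of chromosomes 1 to 22 and X, namely 12 for H2A, 13 for H2B, 10 for H3 and 11 for H4. The gene H4C2 was listed under its older name HIST1H4B. Another 26 protein-coding genes have their transcription start site (TSS) between the first and the last of these histone genes and serve as the neighbours they are compared with. The neighbours include H1-1 to H1-6, the linker histone genes. The neighbour that has no gene symbol starts at the same base and on the same strand as the histone gene H2AC7 (26199521, minus strand). That TSS window is therefore counted in both groups.

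The peaks come from HL-60/S4, an established human myeloid leukemia cell line, in its undifferentiated state, and all samples share this line. In xChIP-seq, fixed cells were sonicated and the fragments were then incubated with rabbit anti-H1.2 or rabbit anti-H1.5. In xxChIP-seq, permeabilized fixed cells were incubated with the same antibodies, fixed again and only then sonicated. Each of the 4 combinations had 3 replicates, whose peaks were merged by the authors, and the 6 Input samples were not used. A merged peak need not come from all 3 replicates. The 4 merged lists carry positions only, with no score, read count or spread between replicates, so depth is unknown, nothing below could be tested across replicates, and the identity of the cells cannot be checked from expression markers. Interval bounds given below cover counting error only, and neighbouring genes that share a peak are not independent.

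Core histones H2A, H2B, H3 and H4 form the octamer around which nucleosomal DNA is wrapped, while the linker histone H1 binds the nucleosome where the DNA enters and leaves. The genes in this cluster are replication-dependent: they are short, lack introns, are transcribed mainly in S phase, and give mRNAs that end in a stem-loop instead of a poly(A) tail. Many H2A and H2B genes lie head to head and share a promoter. Their transcription is organized in the histone locus body, a nuclear structure that contains the coactivator NPAT.

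The 46 genes fell into 4 sub-clusters when a gap of over 200 kb was taken to start a new sub-cluster. Sub-cluster 1 (chr6:25723625-25727573) holds H2AC1 and H2BC1, which encode testis histones. Sub-cluster 2 (chr6:26020679-26285866) holds 24 genes, from H3C1 to H4C8. Sub-cluster 3 (chr6:27093676-27115341) holds 5 genes, from H2BC11 to H2AC12. Sub-cluster 4 (chr6:27775257-27861669) holds 15 genes, from H2BC13 to H2BC17.

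Promoter letters are shown for the H2A, H2B and H3 genes with the highest and with the lowest coverage of the TSS window by xChIP H1.2, and for the H4 gene with the highest, xChIP H1.2 being the list that covered these genes most, so that promoters inside and outside xChIP H1.2 peaks can be read side by side. Each line is the 250 bases before the TSS in GRCh37, 5′ to 3′ on the strand of the gene. Capitals mark TATAAA (the TATA box), CCAAT and ATTTGCAT (the octamer that POU2F1 recognizes) on either strand. None of these motifs contains another. Ties were settled by taking the first gene on the chromosome. The highest value was shared by 2 H3 genes and 3 H4 genes, and the lowest, 0%, by 7 of 12 H2A, 7 of 13 H2B and 8 of 10 H3 genes. H2AC17 (chr6:27860964-27861213, minus strand) and H2AC4 (chr6:26033847-26034096, minus strand) represent H2A, and 100% and 0% of their TSS windows were covered.
H2AC17: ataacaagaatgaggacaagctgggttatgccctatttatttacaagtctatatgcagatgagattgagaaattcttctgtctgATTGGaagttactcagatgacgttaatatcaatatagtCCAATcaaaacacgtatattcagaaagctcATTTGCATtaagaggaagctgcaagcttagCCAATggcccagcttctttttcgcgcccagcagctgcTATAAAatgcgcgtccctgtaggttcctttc
H2AC4: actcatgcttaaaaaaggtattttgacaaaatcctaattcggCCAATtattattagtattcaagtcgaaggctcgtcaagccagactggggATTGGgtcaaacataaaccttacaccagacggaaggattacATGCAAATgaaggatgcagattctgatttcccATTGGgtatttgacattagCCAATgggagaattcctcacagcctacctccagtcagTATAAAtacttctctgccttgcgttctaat

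H2BC17 (chr6:27860953-27861202, plus strand) and H2BC3 (chr6:26043942-26044191, minus strand) represent H2B. H2BC17 and H2AC17 start 240 bp apart and face away from each other, so their promoter lines hold largely the same DNA read from opposite strands.
H2BC17: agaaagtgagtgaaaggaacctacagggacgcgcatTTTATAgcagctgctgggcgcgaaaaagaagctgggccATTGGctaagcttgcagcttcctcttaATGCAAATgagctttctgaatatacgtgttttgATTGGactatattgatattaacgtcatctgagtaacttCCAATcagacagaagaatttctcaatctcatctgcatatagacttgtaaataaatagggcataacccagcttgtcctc
H2BC3: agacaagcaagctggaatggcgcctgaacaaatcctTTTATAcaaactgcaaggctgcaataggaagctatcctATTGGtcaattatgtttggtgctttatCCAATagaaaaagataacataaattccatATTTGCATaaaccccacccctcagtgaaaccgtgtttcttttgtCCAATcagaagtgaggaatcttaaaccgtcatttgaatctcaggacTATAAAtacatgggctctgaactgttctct

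H3C11 (chr6:27840125-27840374, minus strand) and H3C1 (chr6:26020429-26020678, plus strand) represent H3.
H3C11: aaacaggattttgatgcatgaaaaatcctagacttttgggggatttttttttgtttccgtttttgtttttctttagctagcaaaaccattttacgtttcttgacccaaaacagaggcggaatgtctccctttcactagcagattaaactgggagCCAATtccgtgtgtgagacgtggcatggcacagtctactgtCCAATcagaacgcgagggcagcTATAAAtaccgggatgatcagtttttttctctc
H3C1: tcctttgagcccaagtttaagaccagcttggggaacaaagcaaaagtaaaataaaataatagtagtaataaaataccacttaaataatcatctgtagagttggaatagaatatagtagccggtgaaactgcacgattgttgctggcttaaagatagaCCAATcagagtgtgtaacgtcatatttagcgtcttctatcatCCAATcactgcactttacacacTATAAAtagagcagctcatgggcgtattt

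H4C3 (chr6:26103911-26104160, plus strand), with 100% of its window covered, represents H4.
H4C3: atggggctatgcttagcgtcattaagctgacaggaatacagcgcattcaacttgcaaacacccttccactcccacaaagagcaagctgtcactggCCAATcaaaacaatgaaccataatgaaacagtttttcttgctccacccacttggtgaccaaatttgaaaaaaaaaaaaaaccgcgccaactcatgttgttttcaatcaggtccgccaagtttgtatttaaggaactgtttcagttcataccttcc

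In the window from 250 bp before to 50 bp after the TSS, TATAAA was found at 33 of the 46 genes (71.7%), against 10.9% of all protein-coding genes. CCAAT was found at 39 of 46 (84.8%), against 35.8%, and the octamer at 20 of 46 (43.5%), against 1.67%. The octamer was present at 10 of 12 H2A genes and 9 of 13 H2B genes, at 1 of 10 H3 genes and at 0 of 11 H4 genes. The same promoter letters occurred with and without xChIP H1.2 peaks. TATAAA was present at 15 of the 18 genes with an xChIP H1.2 peak in the TSS window and at 18 of the 28 without, CCAAT at 14 of 18 and 25 of 28, and the octamer at 10 of 18 and 10 of 28.

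Across the 46 genes, a peak of either xChIP list lay within 1000 bp of the TSS at 26 (56.5%), against 55.2% of all protein-coding genes. A peak of either xxChIP list did so at 2 (4.35%), H2AC4 and H2AC1, against 13.6%. The xChIP H1.2 list had a peak in the TSS window of 18 genes (39.1%, 95% Wilson interval 26.4 to 53.5), and 48.2% of all protein-coding genes had one. The xChIP H1.5 list had a peak at 16 genes (34.8%, 22.7 to 49.2), against 21.6% of all protein-coding genes. The xxChIP H1.2 list and the xxChIP H1.5 list each had a peak at 1 gene (2.17%, 0.385 to 11.3), against 8.78% and 7.92% of all protein-coding genes. The all-gene share thus lies inside the interval of both xxChIP lists and of xChIP H1.2, none of which is set apart from the background by this count. It lies just below the interval of xChIP H1.5. The 16 xChIP H1.5 windows rest on 11 peaks, however, so that interval is too narrow. With overlapping windows merged, 10 of 30 (33.3%) had an xChIP H1.5 peak. By mean coverage of the window, given below, xChIP H1.2 stood at 21.5% against 37.5% for all protein-coding genes.

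**Figure D1:**
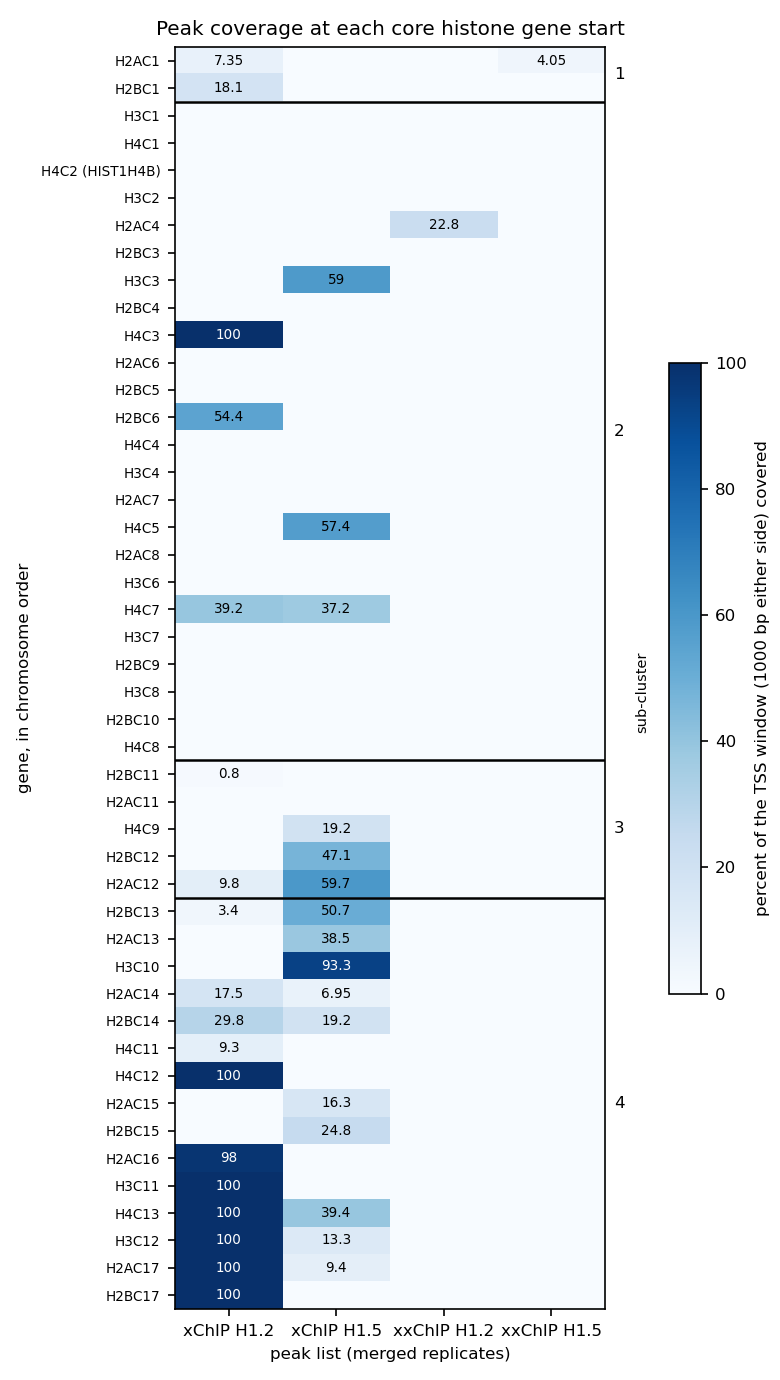
Heat map of the percent of each TSS window (1000 bp on either side) that is covered by peaks, with the 46 core histone genes in chromosome order down the y axis, the 4 merged peak lists along the x axis, and horizontal lines between the 4 sub-clusters. Printed numbers are the values above 0, which fill many cells of the xChIP columns in sub-cluster 4, few in sub-cluster 2, and only H2AC4 (22.8%) and H2AC1 (4.05%) in the xxChIP columns.

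The 26 neighbours had a different balance of the 2 protocols. A peak in the TSS window was found for 9 of them (34.6%) in xChIP H1.2, 4 (15.4%) in xChIP H1.5, 6 (23.1%) in xxChIP H1.2 and 5 (19.2%) in xxChIP H1.5. The histone genes minus the neighbours came to -20.9 percentage points in the xxChIP H1.2 list (95% Newcombe interval -40.0 to -5.77) and -17.1 points in that of xxChIP H1.5 (-35.8 to -2.95). The difference was 4.52 points in the xChIP H1.2 list (-18.5 to 25.46) and 19.4 points in that of xChIP H1.5 (-2.41 to 36.5), and both of these intervals include 0. No test over samples could be made of any of these differences. In the xxChIP lists the neighbours had Wilson intervals of 11.0 to 42.1 (H1.2) and 8.51 to 37.9 (H1.5). The shares over all protein-coding genes, 8.78% and 7.92%, lie below these and inside the intervals of the histone genes. By this count it is the neighbours whose intervals lie off the background in the xxChIP lists, but this depends on the choice of start. With canonical starts 5 (H1.2) and 4 (H1.5) of the 26 had a peak. Counts of 5 and 4 of 26 have intervals of 8.51 to 37.9 and 6.15 to 33.5. These hold the all-gene shares just given, so no weight is put on it. An xChIP peak without an xxChIP peak was found at 25 of the 46 histone genes (54.3%), at 6 of the 26 neighbours (23.1%) and at 48.5% of all protein-coding genes.

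**Figure D2:**
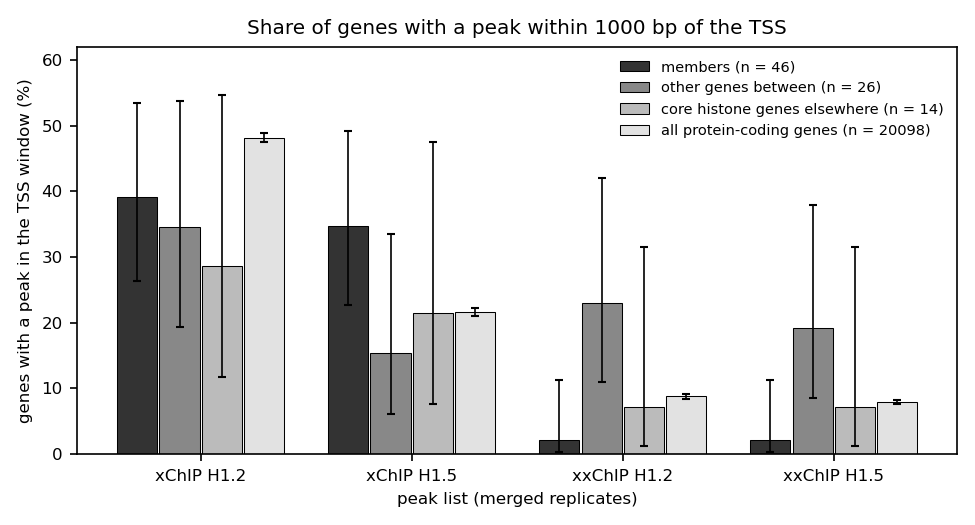
Bars give the percent of genes with a peak within 1000 bp of the TSS (y axis) in each merged peak list (x axis) for the 46 members, which are the core histone genes of chromosome 6, the 26 neighbours between them, 14 core histone genes elsewhere and all 20098 protein-coding genes, with 95% Wilson intervals as error bars. The members stand at 39.1% and 34.8% in the xChIP lists and at 2.17% in each xxChIP list. In the xxChIP lists the neighbours stand at 23.1% and 19.2%, and all protein-coding genes at 8.78% and 7.92%.

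The neighbours with the highest xxChIP coverage lie outside the stretches that hold the histone genes. BTN2A2, a butyrophilin gene of the immunoglobulin superfamily, had 100% of its TSS window covered by both xxChIP lists and 0% by both xChIP lists. SLC17A3, of the SLC17 transporter family, had 81.6% covered by xxChIP H1.2 peaks and 99.7% by H1.5 peaks of the same protocol, again with 0% in both xChIP lists. SLC17A2 had 90.7% covered by xxChIP H1.2 and 0% by the other 3 lists. SLC17A1 was covered in all 4 lists, with H1.2 peaks over 100% in xChIP and 80.1% in xxChIP, and H1.5 peaks over 26.3% in xChIP and 100% in xxChIP. Its window was thus the only one of the 26 with peaks of all 4 lists, and none of the 46 histone genes had more than 2. In xChIP H1.2 the highest neighbours were BTN3A1, SLC17A1 and H1-5, each at 100%. In the xChIP H1.5 list they were BTN3A1 (86.8%), BTN1A1 (74.4%, and 77.7% in that of H1.2) and ABT1 (65.0%, and 80.3%), with xxChIP coverage of 0% at BTN3A1 and ABT1 and of 0% and 1.00% at BTN1A1.

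The mean share of the TSS window covered was also computed. It does not depend on the 1 bp overlap rule, but it still depends on the called peaks and the window. In the xChIP H1.2 list it was 21.5% for the histone genes, 23.6% for the neighbours and 37.5% for all protein-coding genes, so that the histone genes stood below the neighbours by this measure and above them by the count. In the xChIP H1.5 list it was 12.9%, 9.71% and 11.6%. In the xxChIP H1.2 list it was 0.495%, 16.1% and 4.20%, and in the xxChIP H1.5 list 0.0880%, 14.2% and 4.03%. The median over the histone genes was 0% in every list, because fewer than 23 of the 46 had a peak in any of them.

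Coverage by xxChIP peaks was low near the histone gene starts. In the xxChIP H1.2 list, no histone gene was covered anywhere from 500 bp before to 1900 bp after its TSS, and in the xxChIP H1.5 list none from 1100 bp before to 900 bp after, in steps of 100 bp. The xxChIP H1.5 list also had steps of 0% further upstream, so its coverage did not grow steadily with distance. All protein-coding genes were covered at 3.60% in the step just after the TSS in both lists. At 5000 to 10000 bp from the TSS, mean coverage around the histone genes was 10.0% in the xxChIP H1.2 list and 4.96% in that of H1.5, against 12.6% and 10.4% around all genes. Within 500 bp of the TSS, 0 of the 46 histone genes had an xxChIP peak of either antibody (an upper bound of 7.71% by the Wilson interval), against 5.26% (H1.2) and 5.24% (H1.5) of all protein-coding genes. The xChIP lists did not reach 0% in any step within 1000 bp. Mean coverage around the histone genes was 21.5% within 1000 bp of the TSS and 32.02% from 1000 to 2000 bp in xChIP H1.2, and 12.9% and 19.9% in the H1.5 list.

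**Figure D3:**
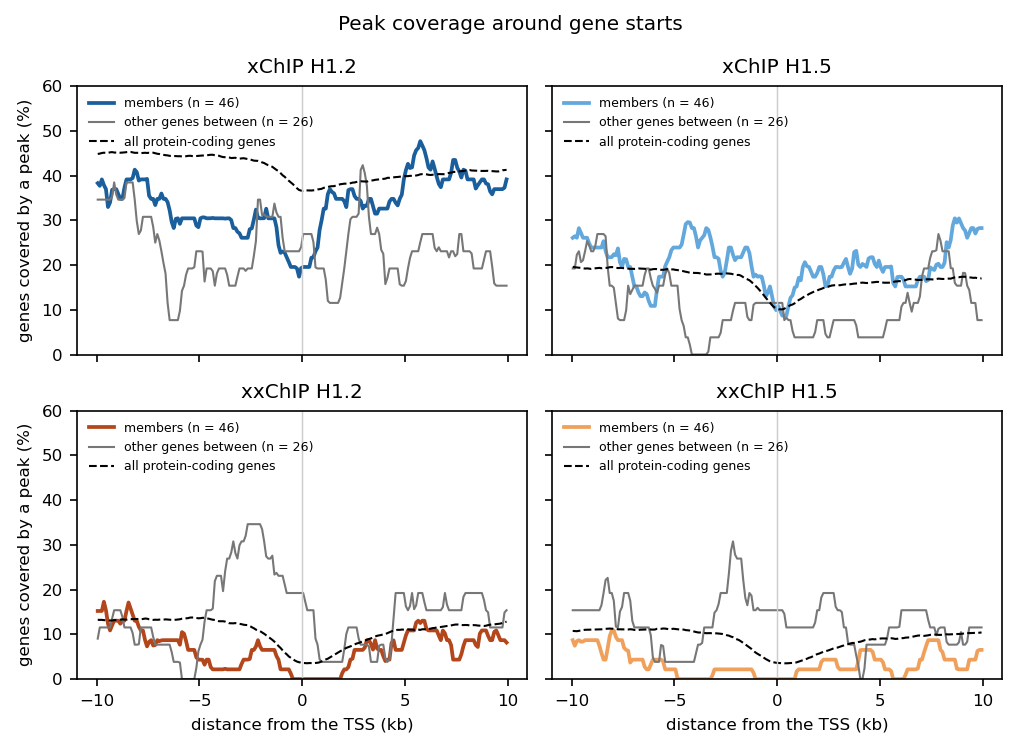
Percent of genes covered by a peak (y axis) in steps of 100 bp out to 10 kb from the TSS (x axis, kb, upstream to the left), in a panel for each merged peak list, for the 46 members (thick line, the core histone genes of chromosome 6), the 26 neighbours between them (grey) and all protein-coding genes (dashed). The members reach 0% around the TSS in both xxChIP panels, and their lowest steps within 1000 bp are 17.4% in xChIP H1.2 and 8.70% in the H1.5 list.

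The distance from the TSS to the nearest peak was measured as well. For the histone genes its median was 1247 bp in xChIP H1.2, 1783 bp in xChIP H1.5, 7084 bp in xxChIP H1.2 and 18966 bp in xxChIP H1.5. For all protein-coding genes the medians were 1144, 4481, 7249 and 8577 bp. No histone gene TSS lay inside an xxChIP peak, where 3.66% (H1.2) and 3.63% (H1.5) of all protein-coding genes had theirs. An xChIP H1.2 peak held the TSS of 9 histone genes (19.6%), against 36.6% of all protein-coding genes, and an xChIP H1.5 peak that of 5 (10.9%), against 10.2%. The longest stretch free of xxChIP peaks of either antibody that holds several of these genes was 66248 bp long (chr6:27801846-27868093) and contained 8 starts, from H2AC15 to H2BC17. The stretch before it, chr6:27752863-27800439 with 47577 bp, contained the other 7 starts of sub-cluster 4.

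The 2 xxChIP peaks that did reach a TSS window stayed clear of the start. The xxChIP H1.2 peak near H2AC4 (chr6:26034391-26036080, 1690 bp) lay 545 to 2234 bp upstream of the TSS and covered 22.8% of the window, and H2AC4 had 0% in the other 3 lists. The xxChIP H1.5 peak near H2AC1 (chr6:25723867-25725870, 2004 bp) lay 920 to 2923 bp downstream, inside the long annotated model of the gene, and covered 4.05%. H2AC1 also had 7.35% covered by xChIP H1.2 and 0% in the remaining lists. Its partner H2BC1 had 18.1% covered by xChIP H1.2 and 0% by the other lists, from an xChIP H1.2 peak of 1437 bp that both windows share.

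The counts of the sub-clusters differed in the xChIP lists. In sub-cluster 2, 3 of 24 genes (12.5%, 4.34 to 31.0) had an xChIP H1.2 peak in the TSS window and 3 of 24 an xChIP H1.5 peak. In sub-cluster 4, 11 of 15 (73.3%, 48.0 to 89.1) had an xChIP H1.2 peak and 10 of 15 (66.7%, 41.7 to 84.8) an xChIP H1.5 peak. All protein-coding genes had such peaks at 48.2% (H1.2) and 21.6% (H1.5). The first share lies inside the xChIP H1.2 interval of sub-cluster 4 and above that of sub-cluster 2. The second lies inside the xChIP H1.5 interval of sub-cluster 2 (4.34 to 31.0) and below that of sub-cluster 4. The intervals of the 2 sub-clusters do not overlap in either list, but they treat genes as independent. In sub-cluster 4, 6 of the 11 xChIP H1.2 windows lie under 1 peak, so the intervals are too narrow and no weight is put on this. In sub-cluster 3, 2 of 5 genes had an xChIP H1.2 peak and 3 of 5 an xChIP H1.5 peak. The span from end to end of sub-cluster 4 was covered at 55.1% by xChIP H1.2 peaks and 35.6% by those of H1.5, and that of sub-cluster 2 at 21.4% and 10.1%, where the known sequence of chromosome 6 was covered at 29.5% and 20.0%. The xxChIP lists covered 10.1% (H1.2) and 6.54% (H1.5) of the span of sub-cluster 2 and 1.63% and 0% of that of sub-cluster 4, against 22.8% and 19.6% of chromosome 6. They covered 4.62% and 0% of the span of sub-cluster 3. In the short span of sub-cluster 1 (3949 bp) they covered 0% and 50.7%, the latter from 1 peak. The stretches between sub-clusters, in chromosome order, were covered at 13.1%, 30.9% and 50.7% by xChIP H1.2 and at 12.6%, 19.2% and 22.8% by xChIP H1.5, so the xChIP H1.2 coverage of sub-cluster 4 was near that of the stretch before it. In these stretches xxChIP H1.2 covered from 17.6% to 22.8% and xxChIP H1.5 from 14.4% to 19.5%.

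**Figure D4:**
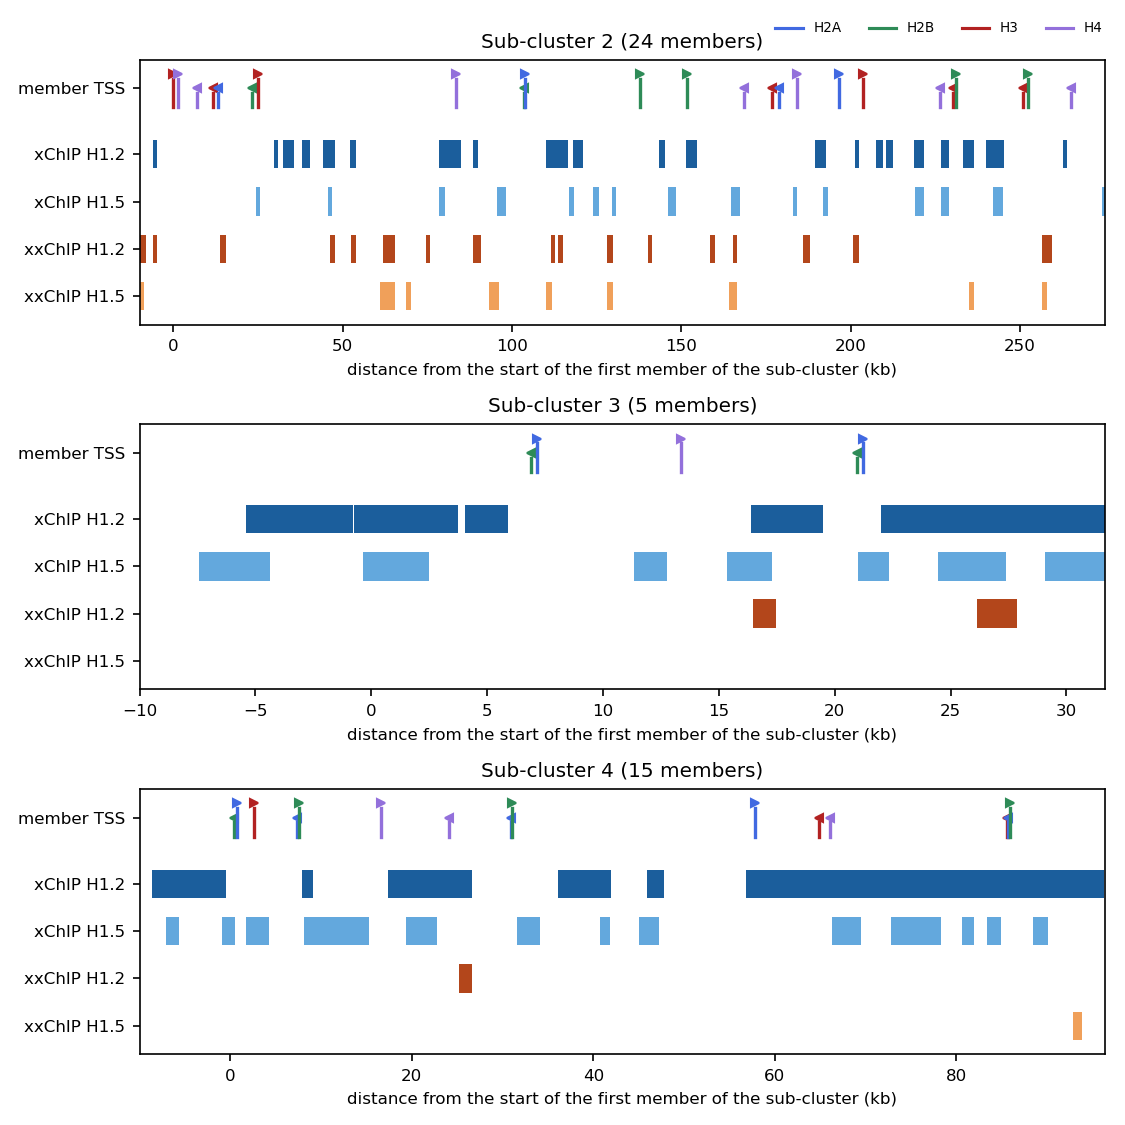
Maps of sub-clusters 2, 3 and 4, with distance in kb from the start of the first gene on the x axis, the merged peaks of each list as bars in 4 rows, and the gene starts above them as arrowheads in the direction of transcription, coloured by histone class. Most gene starts of sub-cluster 2 fall between peaks, and within the 86413 bp of sub-cluster 4 there are long xChIP peaks and 1 xxChIP peak.

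In sub-cluster 2, 18 of the 24 genes had no peak of any list in the TSS window, and in sub-cluster 3 there was 1 such gene, H2AC11. These 19 of 46 genes (41.3%) compare with 37.9% of all protein-coding genes and with 12 of the 26 neighbours. The 5 that come first in chromosome order are H3C1, H4C1, H4C2, H3C2 and H2BC3, all with 0% in the 4 lists. From H3C1 to H3C2 the nearest peak of any list lay at least 2064 bp from the TSS. The others were H2BC4, H2AC6, H2BC5, H4C4, H3C4, H2AC7, H2AC8, H3C6, H3C7, H2BC9, H3C8, H2BC10 and H4C8. By class they make up 4 of 12 H2A, 5 of 13 H2B, 6 of 10 H3 and 4 of 11 H4 genes.

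The other 6 genes of sub-cluster 2 carried a peak. H4C3 had 100% of its window covered by xChIP H1.2 and 0% by the other lists, under a peak of 6431 bp that ran from 5009 bp upstream to 1421 bp downstream. H2BC6 had 54.4% covered by xChIP H1.2 and 0% by the others at the outermost start of its model. Its canonical transcript starts 11702 bp away, and there the window had 0% in both xChIP lists and in xxChIP H1.2, and 16.4% in xxChIP H1.5. With canonical starts throughout, the counts were 17 of 46 in xChIP H1.2, 16 in that of H1.5, 1 in xxChIP H1.2 and 2 in xxChIP H1.5. H3C3, which encodes H3.1 like the other H3 genes of the cluster, had 59.0% covered by xChIP H1.5 and 0% by the others, under a peak of 1180 bp that ran from 437 bp upstream to 742 bp downstream and held the whole gene. H4C5 had 57.4% covered by xChIP H1.5 and 0% by the others. H4C7, whose product is a divergent H4, was the only gene of this sub-cluster with both xChIP isotypes, at 39.2% for H1.2 and 37.2% for H1.5, and the 2 peaks had nearly the same limits (chr6:26247441-26249645 and chr6:26247481-26249676). H2AC4 is described above.

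Sub-cluster 4 ended in a domain of xChIP H1.2. A peak of 39373 bp (chr6:27832136-27871508) covered 98.0% of the window of H2AC16 and 100% of those of H3C11, H4C13, H3C12, H2AC17 and H2BC17. The same peak covered 100% of the window of the linker histone gene H1-5, whose product is the antigen of anti-H1.5. These 6 of the 18 histone genes with an xChIP H1.2 peak therefore rest on 1 peak. H4C12 was also covered at 100% by xChIP H1.2, under a peak of 9242 bp that reached into the window of H4C11 (9.30%). All 7 of these genes had 0% in both xxChIP lists. In the xChIP H1.5 list, H4C13 had 39.4%, H3C12 13.3% (47.2% at its canonical start, 2280 bp away) and H2AC17 9.40%, and H2AC16, H3C11, H4C12 and H2BC17 had 0%.

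The xChIP H1.5 list was highest at other genes. H3C10 had 93.3% of its window covered by xChIP H1.5, H2AC12 59.7%, H3C3 59.0%, H4C5 57.4% and H2BC13 50.7%. In xChIP H1.2, H3C10, H3C3 and H4C5 had 0%, H2AC12 had 9.80% and H2BC13 had 3.40%. These 5 peaks spanned the TSS and were between 1180 and 2518 bp long. Of the remaining 11 windows with an xChIP H1.5 peak, 7 were reached from upstream only and 4 from downstream only. In all, 8 genes had an xChIP H1.5 peak without an xChIP H1.2 peak (7.07% of all protein-coding genes did), 10 had an xChIP H1.2 peak without an xChIP H1.5 peak (33.6%), and 8 (17.4%) had both, against 14.6%. The 8 with both were H4C7, H2AC12, H2BC13, H2AC14, H2BC14, H4C13, H3C12 and H2AC17.

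At the level of bases the 2 antibodies overlapped in part at these starts. The 46 windows merge into 30 separate stretches of 71892 bp in all, of which xChIP H1.2 covered 14768 bp and xChIP H1.5 covered 9468 bp. Both covered 2448 bp, which is 16.6% of the H1.2 bases and 25.9% of the H1.5 bases. The xxChIP peaks of either antibody covered 537 bp (0.747%), and 0 bp of these lay under an xChIP peak.

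The 4 classes could not be told apart in the xChIP lists. An xChIP H1.2 peak was found at 5 of 12 H2A genes (41.7%, 19.3 to 68.0), 6 of 13 H2B genes (46.2%, 23.2 to 70.9), 2 of 10 H3 genes (20.0%, 5.67 to 51.0) and 5 of 11 H4 genes (45.5%, 21.3 to 72.0). An xChIP H1.5 peak was found at 5 of 12, 4 of 13, 3 of 10 and 4 of 11. These intervals overlap, so no order of the classes can be read from them. The GC content of the TSS windows had a median of 49.3% for genes with an xChIP H1.2 peak and 47.3% for those without, and of 49.5% and 47.7% for xChIP H1.5, with overlapping ranges. Over the 46 genes it ran from 38.5% to 52.9%, and the median of 48.0% compares with 55.0% for all protein-coding genes.

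Peaks reached the TSS windows of head-to-head H2A and H2B pairs more often than the DNA between the starts. That DNA is far shorter than the windows and lies inside them, so its count could not be the higher one. There were 8 such pairs, with starts 170 to 251 bp apart. No background share was computed for pairs of starts, so their counts are not set against all genes. An xChIP H1.2 peak reached the TSS window of either partner in 6 pairs and the DNA between the starts in 1, H2AC17/H2BC17 (100% covered). An xChIP H1.5 peak reached a window in 5 pairs and the DNA between the starts in 2. Of these, H2BC12/H2AC12 had 77.0% of that DNA covered and H2BC13/H2AC13 5.71%. An xxChIP H1.5 peak reached a window in 1 pair, H2AC1/H2BC1, and an xxChIP H1.2 peak in 0. Neither xxChIP list covered the DNA between the starts in any of the 8.

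Peaks over the genes themselves were counted next, and here the gene model mattered. The annotated models were short, with a median length of 494.5 bp, but 10 of the 46 ran over 2000 bp, up to 37610 bp for H2BC4. Over the annotated genes, peaks were found at 17 of 46 in xChIP H1.2 (36.96%), 11 in xChIP H1.5 (23.9%), 5 in xxChIP H1.2 (10.9%) and 5 in xxChIP H1.5 (10.9%). All protein-coding genes, which are far longer, had them at 82.9%, 70.3%, 60.6% and 58.0%. The 510 protein-coding genes of at most 1000 bp had them at 22.7%, 12.5%, 9.80% and 10.8%. Over the canonical transcripts, which for these genes were at most 569 bp long, peaks were found at 9 in xChIP H1.2 and 6 in xChIP H1.5, and at 0 of 46 in both xxChIP lists. All canonical transcripts had them at 80.7%, 66.9%, 57.3% and 55.0%, and the 556 of at most 1000 bp at 22.5%, 12.4%, 9.17% and 10.4%. The canonical transcripts of H4C3, H4C12, H2AC16, H3C11, H4C13, H3C12, H2AC17 and H2BC17 were covered from end to end by xChIP H1.2, and those of H3C3, H2AC12, H2BC13 and H3C10 by xChIP H1.5.

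Histone genes are near copies of each other, and only uniquely mappable reads were kept, so the uniqueness of the sequence was measured. Of the 50-base words in a TSS window, a median of 97.4% occurred once in the genome for the histone genes and 100% for the neighbours. With 100-base words both medians were 100%. There were 8 genes with under 90% unique 50-base words, namely H2BC12, H2AC12, H2BC13, H2AC13, H2AC14, H2BC14, H4C11 and H4C12, the lowest being H4C11 at 76.4%. Of these 8, 6 had an xChIP H1.2 peak in the TSS window, 6 an xChIP H1.5 peak and 0 a peak of either xxChIP list. Among the remaining 38 genes, 12 had an xChIP H1.2 peak, 10 an xChIP H1.5 peak and 1 a peak of each xxChIP list. The xChIP peaks were thus more frequent at the less unique windows. All protein-coding genes had such peaks at 48.2%, 21.6%, 8.78% and 7.92%, in the order of the lists. Over the canonical transcripts the median was 100% with 50-base words, and 11 of the 46 were under 90%. The transcript was less unique than the TSS window at 18 genes, more unique at 16 and equal at 12. In H4C12, which xChIP H1.2 covered from end to end, 7.40% of the 50-base words were unique, and in H4C11 7.94%, the lowest values. The part of unique mapping in the presence or absence of peaks was not tested.

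Related genes outside the list were compared last. Of the linker histone genes, H1-5 had 100% of its window covered by xChIP H1.2, H1-2 22.99% and H1-6 3.15%, and H1-6 alone had an xxChIP H1.2 peak (7.55%). H1-1, H1-3 and H1-4 had 0% in all 4 lists. There were 14 core histone genes elsewhere, most of them on chromosome 1. Of these, 4 had an xChIP H1.2 peak (28.6%, against 48.2% of all protein-coding genes) and 3 an xChIP H1.5 peak (21.4%, against 21.6%). A peak of each xxChIP list was found at 1 (7.14%, against 8.78% and 7.92%). That gene was H2BC26, with 0.250% of its window covered in xxChIP H1.2 and 0.600% in the H1.5 list. Each all-gene share lies inside the Wilson interval of the matching count. Of 13 replication-independent core histone genes listed, 11 were found in the annotation. H3-3A and H3-3B, which encode the replacement histone H3.3, H3-5 and H2AZ2 had 100% covered by xChIP H1.2. They were the only ones of the 11 with an xChIP H1.2 peak (36.4%, against 48.2% of all protein-coding genes). An xxChIP peak was found at 0 of the 11 (upper bound 25.9%), against 13.6% of all protein-coding genes.

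Genes of histone gene transcription (5), histone mRNA 3′ processing (9) and histone chaperones (8) were also counted, all 22 of the list being found. Chaperones handle histone proteins and do not act on histone gene expression as such. An xChIP H1.2 peak lay in the TSS window of 14 (63.6%, 43.0 to 80.3), against 48.2% of all protein-coding genes. By group these were 3 of 5, 4 of 9 and 7 of 8, so the chaperones weigh most in this share. An xChIP H1.5 peak lay in the TSS window of 6 of the 22 (27.3%, 13.2 to 48.2), against 21.6%. An xxChIP peak of either antibody was found at 0 of 22 (upper bound 14.9%), against 13.6%. Each all-gene share lies inside the matching interval of the 22 genes, so as a set these counts do not put them apart from the background. NPAT, the coactivator of the histone locus body, had 0% covered in the xChIP H1.2 list and 7.35% in that of H1.5. SLBP, which binds the stem-loop of histone mRNAs, had 100% covered by both xChIP lists. CHAF1A, a subunit of the chromatin assembly factor CAF-1, had 1.15% and 100% covered in the same order, and CHAF1B, its partner subunit, had 100% and 19.7%.

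There are 11 core histone pseudogenes that lie in the same region and were looked at after the values of the genes were known. An xChIP H1.2 peak lay in the window of 4 and an xChIP H1.5 peak in that of 3. An xxChIP H1.2 peak lay in that of 2 and an xxChIP H1.5 peak in that of 1. In the same order, the shares over all protein-coding genes were 48.2%, 21.6%, 8.78% and 7.92%. H2AC3P had 87.0% covered in xxChIP H1.2 and 94.3% in the H1.5 list, in the stretch of SLC17A3 between sub-clusters 1 and 2.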

How the data were processed

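Peaks of the linker histones H1.2 and H1.5 came from undifferentiated HL-60/S4 cells. Paired-end reads had been placed on hg19 by the authors with Bowtie2, restricted to uniquely mappable ones, and passed to MUSIC for peak calling, and the peaks of 3 replicates were merged. The deposited lists give chromosome, start and end of each merged peak, with 142926 (H1.2) and 139938 (H1.5) peaks in xChIP and 143193 (H1.2) and 138491 (H1.5) in xxChIP. They hold no score, so depth is unknown and no stricter peak threshold could be set. The paper counted far fewer peaks per replicate than any of these lists holds, so many merged peaks cannot come from all 3 replicates. Merging can also lengthen peaks.

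Samples were grouped by protocol and antibody. Genes were taken from GENCODE 44 lifted to GRCh37, which is the hg19 sequence, and every peak ended within its chromosome. The TSS was the outermost 5′ end of the gene, and its window reached 1000 bp to either side (2001 bp). Overlap was counted from 1 bp. Neighbours were protein-coding genes with a TSS between the first and last member. RefSeq names (GRCh38) gave only the current name of HIST1H4B. The members and all lists were chosen with earlier results of these data known. Named by rule were the 5 genes with the highest window coverage in each list, those with an xxChIP peak, the first 5 without any peak, the ends of each sub-cluster and the 3 highest neighbours per list; other genes were named after their values were seen. Wilson and Newcombe intervals are at 95%. Interval counting was tested on 1000 simulated intervals, with 0 wrong. Alternatives changed the window, the overlap, the TSS, the peak length, the neighbours and the counting of overlapping windows; counting peaks over the canonical transcript was added after seeing the data. Python 3.11.15, numpy 2.4.6, scipy 1.17.1, pyfaidx 0.9.0.4 and matplotlib 3.10.9 were used. The promoter letters of the H4 gene with the lowest coverage are not reported here. Input samples, reads and expression were not analysed here.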

Additional observations from a re-analysis of the deposited data

How the results depend on the processing

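No paired analysis was possible because each list merges its 3 replicates, and for the same reason leaving out each replicate in turn could not be run. Of 84 recomputed values, 59 stayed within the 95% interval of the value reported, 21 left it and 4 changed sign. The 59 include every value recomputed with peaks of at least 1000 bp. That rule changed no value and is no check. For mean coverage the interval was the Wilson formula applied to the mean share, and it is not printed above. The share of histone genes with a peak in the TSS window moved with the window: 500 bp gave 23.9% (H1.2) and 19.6% (H1.5) in xChIP and 0% in both xxChIP lists, and 2500 bp gave 54.3% and 52.2% in xChIP and 15.2% in xxChIP H1.2. Asking for 50% of the window gave 19.6%, 10.9%, 0% and 0%. The mean coverage within 500 bp was 0% in both xxChIP lists. Over the gene, asking for 50% gave 19.6% and 10.9% in the xChIP lists and 0% and 2.17% in xxChIP H1.2 and H1.5, and the canonical transcript gave 19.6%, 13.0%, 0% and 0%. The histone genes minus the neighbours changed sign in the xChIP H1.2 list at 500 bp (-3.01 points), at 50% of the window (-7.36) and with the canonical TSS (-1.51), and in that of xChIP H1.5 at 50% of the window (-0.669), so no direction is given for these lists. In the xxChIP lists all 16 alternatives kept the histone genes below the neighbours, among them the rule on peak length that changed no value. The lists hold no read depth, so a peak missed for lack of reads cannot be told from the absence of enrichment.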
